A study of Mus musculus with 17 samples.

Results

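The comparison described here set cardiac fibroblasts (CFs) sorted from mouse hearts 4 days post-infarction (dpi) against those sorted at 3 dpi, with 3 libraries at 4 dpi and 4 at 3 dpi out of 17 bulk RNA-seq libraries in the series. Autosomal genes other than the globins were described, which left 13554 of the 14030 genes that passed the filter on low counts (at least 10 counts in at least 3 libraries). The single 5 dpi library served only as a check on direction. All groups came from C57BL/6 mice of 8–10 weeks with the genotype Collagen1a1-GFP+, in which a collagen type I promoter drives green fluorescent protein, and all hearts had been infarcted by ligating the left anterior descending coronary artery. No uninfarcted heart was among the libraries. The cells were released by enzymatic digestion and sorted as GFP+/CD31-/CD45-, so a fibroblast with little collagen promoter activity would not have been collected. The labels call the libraries biological replicates without tying any of them to a particular animal.

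After an infarct, resident CFs leave their resting state, divide in the days that follow, and then lay down and organise the collagen scar that keeps the ventricular wall from rupturing. Small leucine-rich proteoglycans (SLRPs) sit on collagen fibrils and govern their diameter and spacing, and microfibril proteins scaffold elastic fibres. The study named reparative cardiac fibroblasts (RCFs), a CF state marked by Cthrc1, and the days compared here fall in the first week, when that state appears.

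The sorted cells carried the fibroblast markers at high levels. Their 9 fibroblast marker genes summed to between 25200 and 38600 CPM (counts scaled to a common library total) at 3 dpi and between 28800 and 35400 CPM at 4 dpi, whereas Pecam1 and Ptprc, which encode the CD31 and CD45 used for negative selection, held at most 108 and 37 counts in any library of the 2 days. Total counts ran from 8465454 to 14123952 at 3 dpi and from 8336263 to 18716767 at 4 dpi, and the 5 dpi library held 9715764. Sex-linked genes separated the days completely: Xist read 0–2 counts at 3 dpi, 1180–3436 at 4 dpi and 0 at 5 dpi, and 4 Y-linked genes summed to 402–795, 1–5 and 429 counts. Sex and day therefore cannot be told apart between 3 and 4 dpi, while the 5 dpi library matched the 3 dpi libraries in this respect. Xist and the Y-linked genes read 34–51 and 1095–1349 counts at 2 dpi, and 1005–3273 and 1–10 at 6 dpi. The 1 dpi libraries differed, with 1670 and 84 counts in replicate 1, 461 and 1455 in replicate 2, and 63 and 1207 in replicate 3. Globin transcripts, from red cells, summed to 2.0–29.2 CPM at 3 dpi, 271.4–2682.0 CPM at 4 dpi and 27.0 CPM at 5 dpi. Mitochondrially encoded transcripts made up 0.321–0.782%, 1.22–2.044% and 0.62% of counts on those days. Their share was 1.45–1.856% at 1 dpi and 1.354–1.699% at 2 dpi. At 6 dpi it was 0.458%, 0.425% and 1.711% in replicates 1, 2 and 3. The names of the 3 dpi columns follow another form than those of the other days. Of the replicates, 3 dpi replicate 2 and 4 dpi replicate 3 stood apart from the rest of their groups, and counts of genes are given below also without both.

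Between 3 and 4 dpi, 208 autosomal genes rose and 148 fell (edgeR quasi-likelihood test, Benjamini-Hochberg adjusted p under 0.05 over all genes tested), which is 2.63% of the genes tested, 1.53% in the upward and 1.09% in the downward direction. The genes that rose included collagen-associated proteoglycans, microfibril proteins, the tendon transcription factor Scx and the growth factors Ptn and Mdk. Those that fell included replication-dependent histone genes, the neutrophil chemokine Cxcl5 and the glucocorticoid-regulated factor Klf15. The median log2 fold change was 1.35 among genes that rose and -1.25 among genes that fell, against -0.04 over all genes tested, and 186 and 121 of them changed more than 2-fold. In 200 of the 208 and 144 of the 148, the libraries of the 2 days did not overlap, which held for 16.6% of all genes tested. Without adjustment 2442 genes (18.0%) had a p under 0.05. Leaving out each of the 7 libraries in turn, 57 of the genes that rose and 20 of those that fell passed in every fit, and none turned direction. Without both doubted libraries 812 genes passed, 467 higher and 345 lower, and among them were 168 of the 208 and 107 of the 148.

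**Figure D1:**
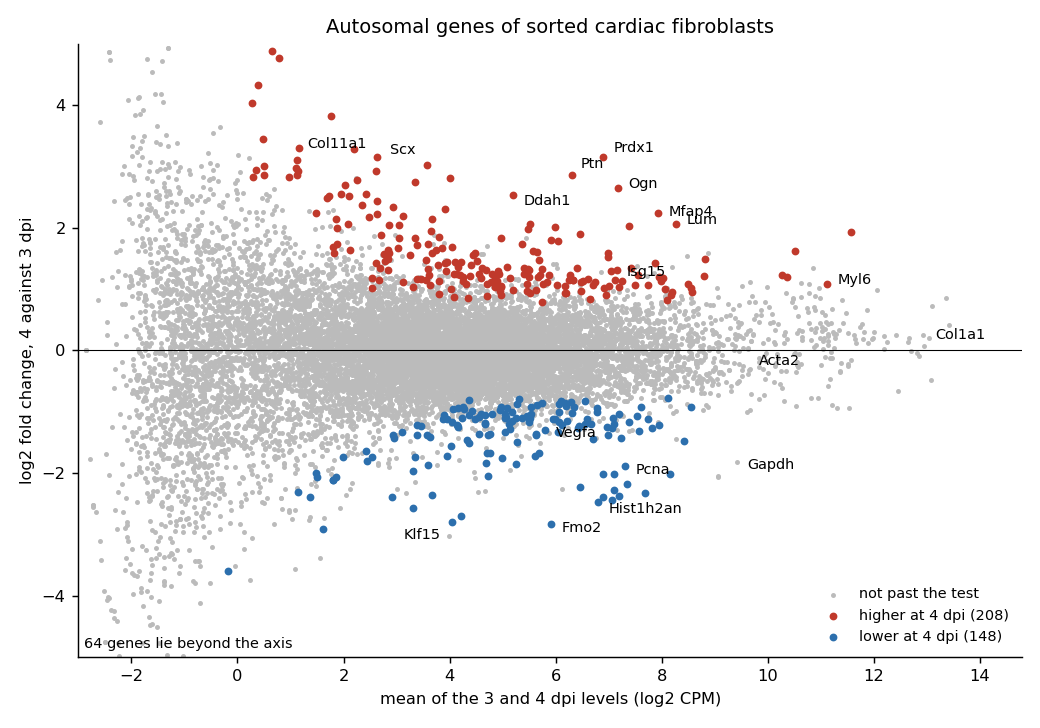
Log2 fold change of each autosomal gene from 3 to 4 dpi (vertical axis) against the mean of its levels on those days in log2 CPM (horizontal axis); red points are the 208 genes that rose, blue points the 148 that fell and grey points did not pass the test. The most abundant genes, such as Col1a1, lie near 0 while Ptn, Ogn, Mfap4 and Lum lie well above it, and 64 genes fall beyond the limits of the vertical axis.

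The 5 dpi library shared its 3 dpi reference with the comparison, so its direction is not independent of it. It stood above the 3 dpi mean in 196 of the 208 genes that rose and below it in 138 of the 148 that fell, and above it in 7106 of all 13554 genes tested. It lay above every 3 dpi library in 158 of the former (76.0%) and below every 3 dpi library in 103 of the latter (69.6%), whereas over all genes tested it lay above all of them in 22.0% and below all of them in 19.1%.

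Over all 13554 genes tested, 6446 had a positive log2 fold change and 1.53% rose. All 6 RCF markers given by the study had a higher mean at 4 dpi, although only 2 passed the test. The study followed these markers in the same libraries, so they are not an independent choice. Ptn, which encodes the heparin-binding growth factor pleiotrophin (chr6:36714929-36810220, GRCm38), read 4.67, 5.33, 5.22 and 4.36 log2 CPM at 3 dpi and 7.28, 7.46 and 8.42 at 4 dpi. Ddah1, whose enzyme degrades inhibitors of nitric oxide synthase (chr3:145758675-145894277), read 3.83, 4.13, 3.53 and 4.19 log2 CPM at 3 dpi and 6.46, 6.72 and 6.19 at 4 dpi. Both genes were higher in every 4 dpi library by more than the whole spread within either day. Ptn rose by a log2 fold change of 2.86 ± 0.33 (SE, adjusted p = 0.0001) and Ddah1 by 2.54 ± 0.26 (adjusted p = 3.7e-05), and both passed whichever library was left out. At 5 dpi Ptn stood at 7.62 and Ddah1 at 7.52 log2 CPM, and their 6 dpi means were 8.03 ± 0.25 and 7.12 ± 0.32 (SD, n = 3). Both had been low on the earlier days too, at 4.45 ± 0.32 and 3.11 ± 0.49 log2 CPM at 2 dpi.

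Cthrc1, the collagen triple helix repeat protein that defines RCFs, read 8.82, 9.67, 9.01 and 9.46 log2 CPM at 3 dpi and 9.74, 10.07 and 10.34 at 4 dpi. The days did not overlap, but the difference of 0.79 ± 0.25 missed the threshold (adjusted p = 0.1). It passed with DESeq2 (adjusted p = 0.029) and without 3 dpi replicate 2 (0.95, adjusted p = 0.025). Its mean had been 7.05 ± 0.12 log2 CPM at 2 dpi, against 9.24 ± 0.39 (SD, n = 4) at 3 dpi. Postn, which encodes the matricellular protein periostin, read 10.31 to 10.6 log2 CPM at 3 dpi and 11.23 to 11.59 at 4 dpi, again without overlap, with a log2 fold change of 1.02 ± 0.31 (adjusted p = 0.09). Fn1, for fibronectin, differed by 0.32 ± 0.31 (adjusted p = 0.64), and Lox, for lysyl oxidase, by 0.43 ± 0.37 (adjusted p = 0.6). Of the RCF list, 4 members passed when DESeq2 replaced edgeR and 2 passed without the doubted libraries. In those fits 835 of 13554 and 812 of 13461 genes tested passed.

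The genes for the abundant fibrillar collagens did not pass the test. Col1a1 read 12.23, 14.03, 12.53 and 12.48 log2 CPM at 3 dpi and 12.97, 13.07 and 13.2 at 4 dpi, so that 1 of the 3 dpi libraries, replicate 2, lay above all others. Its log2 fold change was 0.06 ± 0.35 (adjusted p = 0.95), and 0.66 without that library. Col1a2 differed by 0.14 ± 0.28 (adjusted p = 0.85) and Col3a1 by 0.21 ± 0.28 (adjusted p = 0.76). Among 11 fibrillar collagen genes tested, 1 rose and none fell, against 1.53% and 1.09% of all genes tested. The median log2 fold change of the 11 was 0.32. The gene that rose was Col11a1, for a minor fibrillar collagen that sets fibril diameter in cartilage and tendon (chr3:114030540-114220718). It read 0.46, 0.24, 1.77 and 1.64 log2 CPM at 3 dpi and 4.43, 4.35 and 3.96 at 4 dpi, with raw counts of 13–44 against 144–350. Every 4 dpi library was above every 3 dpi library, the log2 fold change was 3.15 ± 0.60 (adjusted p = 0.0078), and the 5 dpi library stood at 3.6 log2 CPM. Of 23 other collagen genes, only Col8a2 rose, by 2.52 ± 0.55 (adjusted p = 0.017), with a level at 6 dpi of 5.18 ± 0.26 log2 CPM against 3.01 ± 0.27 at 4 dpi. Its call was lost in 3 of the 7 fits without 1 library, with adjusted p up to 0.076. None of 31 genes for collagen folding and crosslinking enzymes passed the test (median log2 fold change 0.11), and in 3 the 4 dpi libraries lay above all of 3 dpi, as in 8.39% of all genes tested.

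Several SLRP genes were among those that rose most. Of 13 tested, 4 rose and none fell, where 1.53% of all genes tested rose and 1.09% fell. The median log2 fold change of the 13 was 0.77. Without the doubted libraries 4 SLRP genes rose as well, in a fit where 467 of all 13461 genes tested did. Ogn, which encodes osteoglycin (chr13:49608046-49624501), read 5.55, 5.37, 6.72 and 5.58 log2 CPM at 3 dpi and 8.17, 8.68 and 8.76 at 4 dpi. Lum, for lumican (chr10:97565128-97572703), read 7.09, 6.6, 8.04 and 7.07 log2 CPM at 3 dpi and 9.02, 9.34 and 9.67 at 4 dpi. In both genes 3 dpi replicate 3 was the highest of its day and still lay below every 4 dpi library. The log2 fold change was 2.64 ± 0.38 for Ogn (adjusted p = 0.00084) and 2.07 ± 0.37 for Lum (adjusted p = 0.0058). Aspn, for asporin, rose by 2.03 ± 0.40 (adjusted p = 0.0099), and its call was lost without 4 dpi replicate 3 (log2 fold change 1.6, adjusted p = 0.0528). Aspn shares exon sequence positions with Cenpp, so reads in the overlap cannot be assigned without strand. Fmod, for fibromodulin (chr1:134037254-134048277), read 2.19, 2.34, 3.42 and 2.39 log2 CPM at 3 dpi and 4.99, 5.31 and 5.96 at 4 dpi. All 4 dpi libraries were above all 3 dpi libraries and the log2 fold change was 2.82 ± 0.38 (adjusted p = 0.00046). Decorin was different: Dcn, the SLRP gene with the highest mean level in the list, differed by -0.04 ± 0.32 (adjusted p = 0.96) between overlapping groups.

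These proteoglycan genes and the microfibril gene Mfap4 differed in their course over the first week. Ogn stood at 7.24 ± 0.51 log2 CPM at 1 dpi and 8.03 ± 0.63 at 2 dpi (SD, n = 3 each), read 5.81 ± 0.62 at 3 dpi (n = 4), and stood at 8.54 ± 0.32 at 4 dpi, 7.36 at 5 dpi and 8.36 ± 0.62 at 6 dpi. Lum likewise read 9.25 ± 0.61 log2 CPM at 2 dpi, above its 3 dpi mean of 7.20 ± 0.60 and close to its 4 dpi mean of 9.34 ± 0.32, and its 5 dpi value of 7.56 lay within the 3 dpi range. Aspn and Mfap4 were also higher at 2 dpi, at 7.61 ± 0.46 and 7.76 ± 0.35 log2 CPM, than their 3 dpi means of 6.35 ± 0.76 and 6.76 ± 0.61. The 3 dpi means of these 4 genes thus lay below their 2 dpi means as well as below 4 dpi. On other days they differed: Aspn stood at 5.89 ± 0.51 log2 CPM at 1 dpi, below its 3 dpi mean, and Mfap4 reached 10.33 ± 0.25 at 6 dpi. Fmod stood at 3.51 ± 0.48 log2 CPM at 1 dpi, 2.88 ± 0.94 at 2 dpi and 2.58 ± 0.56 at 3 dpi. It then stood at 5.42 ± 0.49 at 4 dpi, 6.21 at 5 dpi and 8.06 ± 0.22 at 6 dpi. The differences involving 1, 2 and 6 dpi are given as levels and were not tested.

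Cartilage and tendon matrix genes had the highest median among the lists other than cell type markers, at a log2 fold change of 1.21 over 19 genes tested. Of the 19, 4 rose and none fell, against 1.53% and 1.09% of all genes tested. Scx, which encodes scleraxis, the transcription factor that specifies tendon and ligament progenitors (chr15:76457452-76459458), read 1.18, 1.68, 2.93 and 2.42 log2 CPM at 3 dpi and 4.38, 5.02 and 5.85 at 4 dpi. Every 4 dpi library exceeded every 3 dpi library, and the log2 fold change was 3.03 ± 0.44 (adjusted p = 0.00089). The 5 dpi library, at 6.7 log2 CPM, was higher still, and levels at 1 and 2 dpi of 2.10 ± 0.83 and 2.01 ± 0.49 were near that of 3 dpi (2.05 ± 0.78). Besides Scx, Fmod and Col11a1, the list held Thbs4, for thrombospondin 4, a matricellular protein of tendon and of injured heart. Thbs4 read 5.92 to 6.61 log2 CPM at 3 dpi and 7.48, 7.74 and 8.03 at 4 dpi, and its log2 fold change of 1.52 ± 0.33 (adjusted p = 0.016) lost its call in 4 of the 7 fits without 1 library, with adjusted p up to 0.06.

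**Figure D2:**
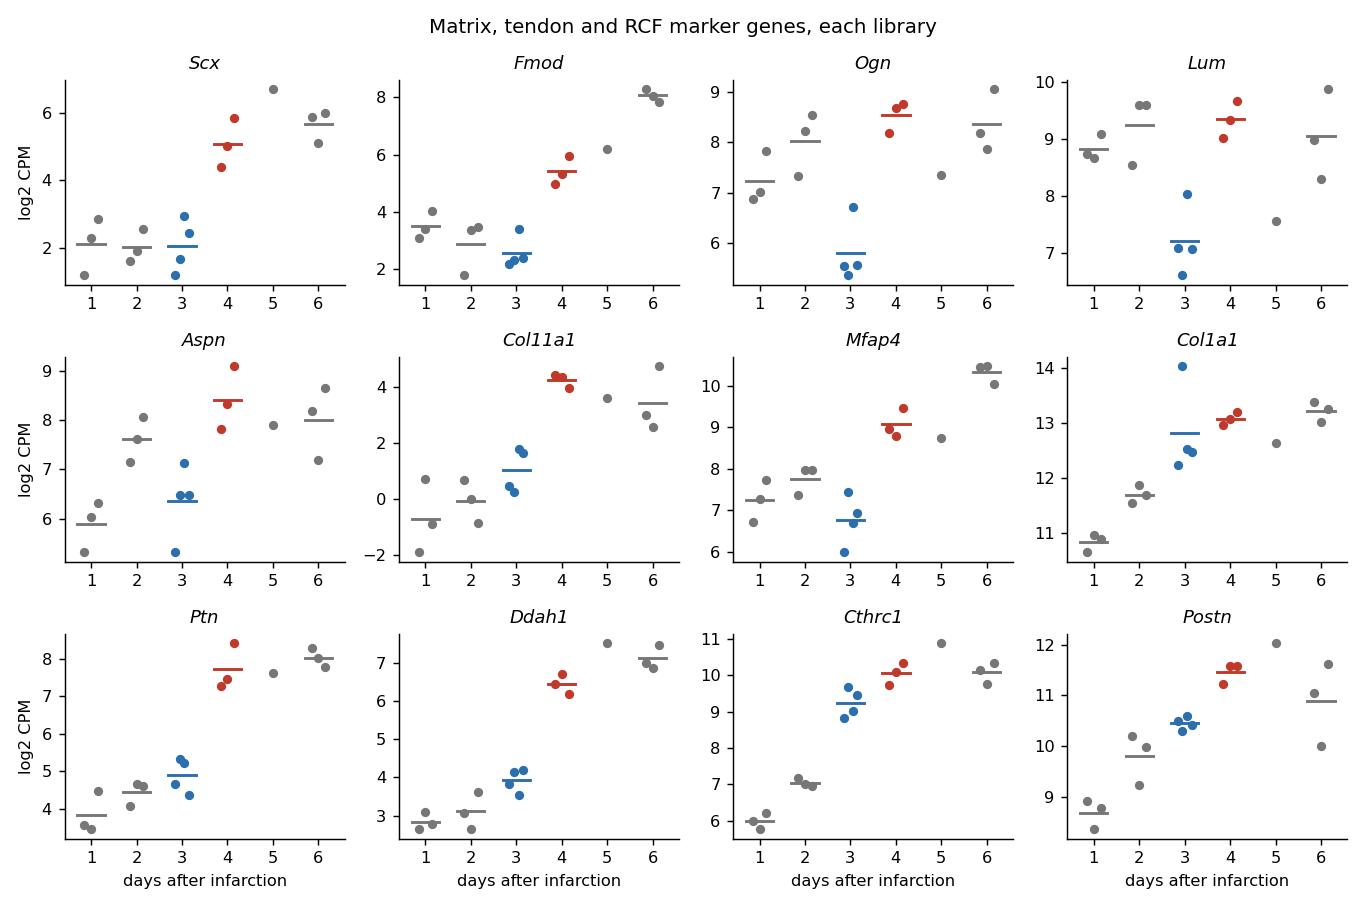
Levels of 12 matrix, tendon and RCF marker genes in each library (points, log2 CPM) by days after infarction, with bars for the mean of each day that has replicates; 3 dpi is blue and 4 dpi red. Scx, Fmod, Col11a1, Ptn and Ddah1 stayed low through 3 dpi and stepped up at 4 dpi, while Ogn, Lum, Aspn and Mfap4 were lower at 3 dpi than at 2 dpi, and in Col1a1 3 dpi replicate 2 (14.03 log2 CPM) lay above all other libraries of those days.

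Where 1.53% of all genes tested rose and 1.09% fell, 2 of 23 matricellular genes rose and none fell (median log2 fold change 0.44). Next to Thbs4 this was Thbs2, for the angiogenesis inhibitor thrombospondin 2, with a log2 fold change of 1.14 ± 0.30 (adjusted p = 0.0481), a call lost in each of the 7 fits without 1 library and with both doubted libraries left out. Sparc, which encodes a collagen-binding glycoprotein needed for scar stability, read 12.51 to 13.24 log2 CPM at 3 dpi and 13.3 to 13.61 at 4 dpi, and its log2 fold change of 0.72 ± 0.27 did not pass (adjusted p = 0.16), although it passed with DESeq2 (adjusted p = 0.035), without 3 dpi replicate 2 (0.93, adjusted p = 0.028) and without both doubted libraries (0.91, adjusted p = 0.03). Of 20 elastic fibre and microfibril genes, 2 rose and none fell, with a median log2 fold change of 0.42. Without the doubted libraries 6 of these genes rose, in a fit where 467 of all 13461 genes tested did. Mfap4, for a microfibril protein that binds elastin (chr11:61485431-61488900), read 5.98, 7.45, 6.69 and 6.94 log2 CPM at 3 dpi and 8.96, 8.8 and 9.47 at 4 dpi. The groups were more than 1 log2 unit apart, and the log2 fold change was 2.25 ± 0.32 (adjusted p = 0.00076). Mfap4 shares exon positions with the neighbouring Mapk7. Mfap2, for another fibrillin-associated glycoprotein, rose by 1.59 ± 0.27 (adjusted p = 0.0038) and stood at 6.97 log2 CPM at 5 dpi, just above the highest 3 dpi library (6.95).

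Among matrix proteases, 1 of 16 matrix metalloproteinase and inhibitor genes fell (1.09% of all genes tested did), Mmp19, which read 6.25, 6.39, 6.37 and 6.32 log2 CPM at 3 dpi and 4.76, 5.07 and 5.01 at 4 dpi. This was a tight difference, with a log2 fold change of -1.39 ± 0.20 (adjusted p = 0.001), and the 5 dpi library lay between the days at 5.45, although Mmp19 shares exon positions with 2 other annotated genes. Of 22 ADAMTS protease genes 1 rose, against 1.53% of all genes tested. This was Adamts12, which encodes an enzyme that cleaves cartilage matrix protein, by 1.67 ± 0.33 (adjusted p = 0.0095). None of 17 hyaluronan and large proteoglycan genes passed.

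Of 32 contractile genes of myofibroblasts 2 rose and none fell, with a median log2 fold change of 0.10, where 1.53% of all genes tested rose. Acta2, the smooth muscle actin that defines myofibroblasts, read 9.32, 10.29, 9.01 and 9.64 log2 CPM at 3 dpi and 9.74, 9.81 and 9.47 at 4 dpi, which overlapped, and differed by 0.03 ± 0.32 (adjusted p = 0.97). The genes that rose were for myosin light chains of non-muscle and smooth muscle cells. Myl9 rose by 1.30 ± 0.29 (adjusted p = 0.018), from 6.51 ± 0.43 log2 CPM at 3 dpi (SD, n = 4) to 7.82 ± 0.44 at 4 dpi (n = 3), and the 5 dpi library stood at 8.25. Myl6 rose by 1.09 ± 0.29 (adjusted p = 0.0458). Leaving out 1 library ended the call of Myl9 in 3 of the 7 fits and that of Myl6 in 5. Itgav, the integrin αV subunit that binds and activates latent TGF-beta, rose by 1.12 ± 0.27 (adjusted p = 0.032), 1 of 17 integrin genes to do so, and lost its call in 4 of the 7 fits.

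In the TGF-beta pathway, which drives fibroblasts to make matrix, 1 of 25 genes rose and 2 fell (median log2 fold change 0.20). Over all genes tested 1.53% rose and 1.09% fell. The ligand gene Tgfb3 (chr12:86056745-86079041) read 5.72, 5.54, 5.81 and 5.97 log2 CPM at 3 dpi and 6.87, 6.86 and 6.99 at 4 dpi. Its groups were far apart relative to their spread, the log2 fold change was 1.14 ± 0.20 (adjusted p = 0.0054), and the 5 dpi library was higher, at 7.68. The inhibitory Smad gene Smad7, itself induced by TGF-beta, read 6.44 to 6.95 log2 CPM at 3 dpi and 5.5 to 5.78 at 4 dpi. It fell by 1.16 on the log2 scale (SE 0.23, adjusted p = 0.011), and without 4 dpi replicate 1 the adjusted p was 0.0546.

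In the WNT pathway 3 of 26 genes rose and none fell (median log2 fold change 0.04), where 1.53% of all genes tested rose and 1.09% fell. Nkd2, an intracellular WNT antagonist, read 3.8, 3.72, 4.3 and 4.32 log2 CPM at 3 dpi and 5.89, 6.06 and 5.7 at 4 dpi. That gap exceeded 1 log2 unit, the log2 fold change was 1.84 ± 0.24 (adjusted p = 0.00037), and the call held whichever library was left out. Sfrp1, a secreted decoy of WNT ligands, rose by 0.91 ± 0.21 (adjusted p = 0.027), and Dkk3, of the Dickkopf family, by 1.32 ± 0.29 (adjusted p = 0.016). Sfrp2, of the same family as Sfrp1, differed by -0.08 ± 0.25 (adjusted p = 0.91) between overlapping groups. Sfrp1 lost its call in 4 of the 7 fits without 1 library and Dkk3 in 3, with adjusted p up to 0.11 and 0.067. In the BMP and activin pathway Gdf15 alone of 30 genes rose, by 0.87 ± 0.23 (adjusted p = 0.0452), a call lost in 6 of the 7 fits and with both doubted libraries left out.

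Both members of the pleiotrophin and midkine family rose, out of 33 genes for PDGF, FGF and angiogenic factors, of which 2 rose and 1 fell (median log2 fold change 0.31). The shares over all genes tested were 1.53% higher and 1.09% lower. Mdk, for midkine (chr2:91929805-91932297), read 5.37, 6.12, 5.42 and 5.19 log2 CPM at 3 dpi and 7.18, 6.98 and 8.01 at 4 dpi. There was no overlap, the log2 fold change was 1.89 ± 0.29 (adjusted p = 0.0013), and the 5 dpi library stood at 7.15. Vegfa, the main angiogenic growth factor and a hypoxia target, read 6.11, 7.2, 5.94 and 6.47 log2 CPM at 3 dpi and 4.86, 4.99 and 5.67 at 4 dpi. It fell by 1.30 on the log2 scale (SE 0.33, adjusted p = 0.039), and lost its call in 4 of the 7 fits, with adjusted p up to 0.17. In the nitric oxide, angiotensin and natriuretic list, 2 of 23 genes rose and 1 fell. Besides Ddah1, the nitric oxide receptor subunit gene Gucy1a1 (chr3:82092427-82145789) rose, from 2.14, 2.0, 2.08 and 1.95 log2 CPM at 3 dpi to 3.93, 4.74 and 5.31 at 4 dpi. Its 3 dpi libraries were nearly identical and all below 4 dpi, and the log2 fold change was 2.76 ± 0.35 (adjusted p = 0.00034). At 1 dpi it stood at 3.68 ± 0.27 log2 CPM and at 5 dpi at 4.14. Ace, for angiotensin-converting enzyme, fell by 1.12 on the log2 scale (SE 0.27, adjusted p = 0.029), with a call lost in 4 of the 7 fits and a 5 dpi level of 7.96 between those of 4 dpi (7.19 ± 0.17) and 3 dpi (8.30 ± 0.16).

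Of 24 genes of the IGF axis and of imprinted growth control, 3 rose and none fell, although the median log2 fold change was -0.13. The shares over all genes tested were 1.53% higher and 1.09% lower. The imprinted gene Plagl1, a zinc finger regulator of an imprinted gene network, rose by 2.71 ± 0.55 (adjusted p = 0.011), from -0.51 to 1.48 log2 CPM at 3 dpi to 3.13 to 3.63 at 4 dpi. It passed in every fit without 1 library, yet the 5 dpi library stood at 1.56, just above the 3 dpi range. Mest, also imprinted, rose by 1.44 ± 0.31 (adjusted p = 0.017) and reached 6.44 log2 CPM at 5 dpi, and Igfbp5, for an IGF-binding protein, rose by 1.2 ± 0.32 (adjusted p = 0.0458). Mest lost its call in 3 of the 7 fits and Igfbp5 in 6, and Mest overlaps Copg2 in the annotation. Among 38 fibroblast transcription factor genes, 3 rose and none fell (median log2 fold change -0.03). With Scx these were Prrx2, a mesenchymal homeobox gene, which rose by 1.40 ± 0.22 (adjusted p = 0.0018) with a 5 dpi level of 4.92 log2 CPM against 3.70 ± 0.28 at 3 dpi, and the forkhead gene Foxp2. Foxp2 rose by 1.94 ± 0.40 (adjusted p = 0.011), and by 1.39 without 4 dpi replicate 3 (adjusted p = 0.072).

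**Figure D3:**
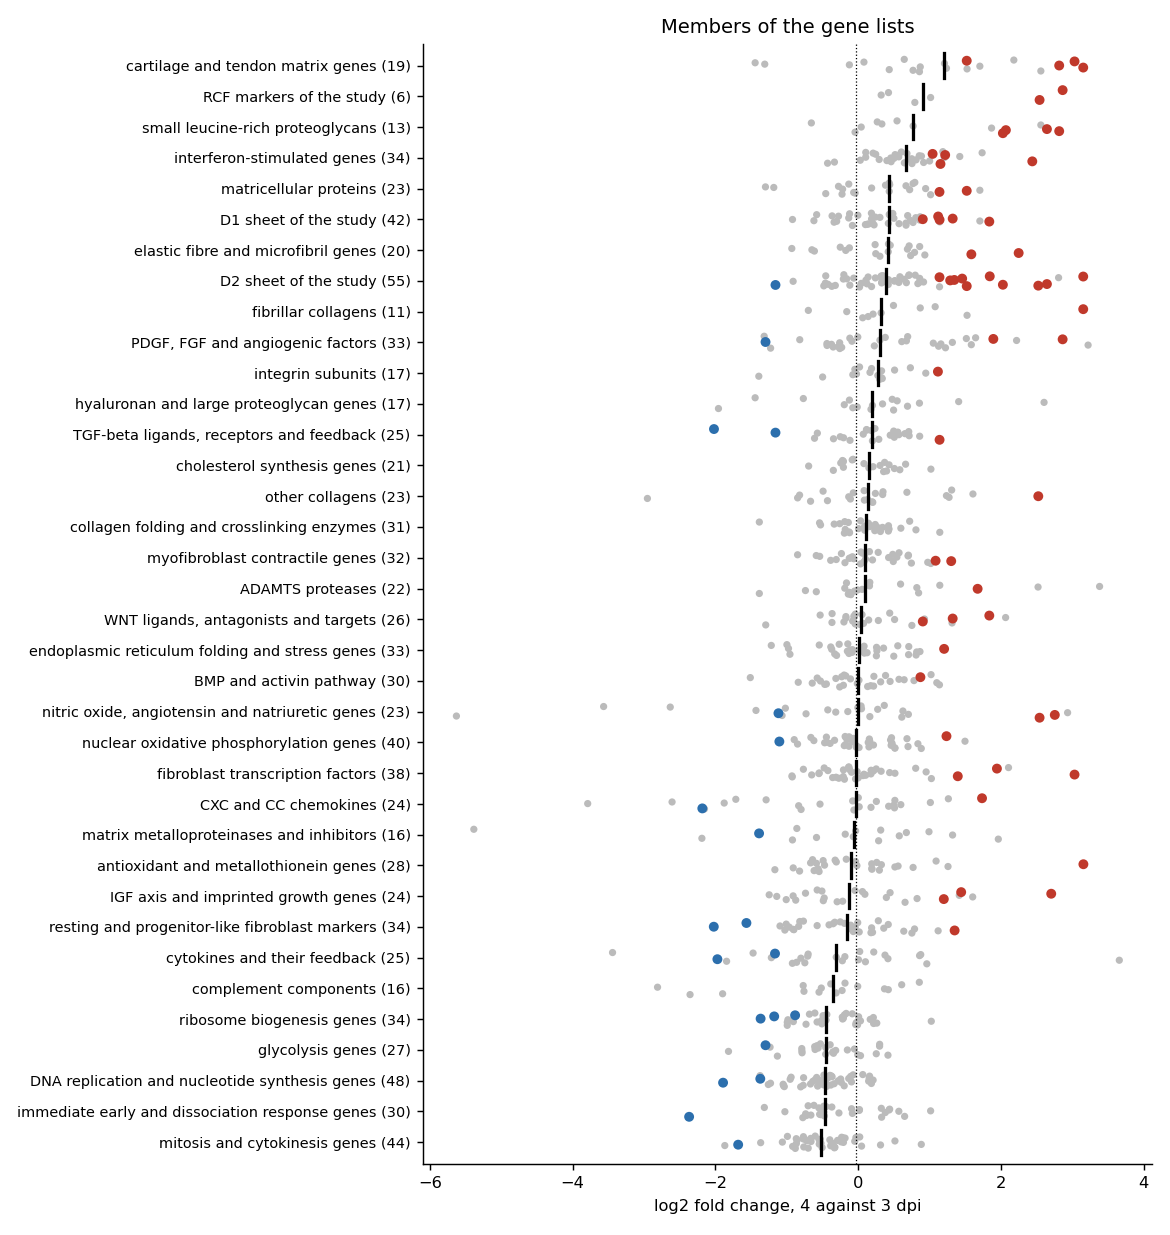
Log2 fold change from 3 to 4 dpi of each tested member of the gene lists, with the number tested in parentheses; red and blue points passed the test, grey points did not, black bars are list medians and the dotted line is the median of all genes tested. Cartilage and tendon matrix, RCF marker, SLRP and interferon-stimulated genes have the highest medians (1.21, 0.91, 0.77 and 0.67), and mitosis genes the lowest (-0.53).

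Interferon-stimulated genes, which encode antiviral proteins and are induced through a promoter element bound by the STAT and IRF factors, were higher at 4 dpi nearly throughout. Of 34 tested, 4 rose and none fell, against 1.53% and 1.09% of all genes tested. A positive log2 fold change was found in 32 of the 34 and in 6446 of all 13554 genes tested. In 16 of the 34 the 4 dpi libraries lay above all 3 dpi libraries, a pattern found in 8.39% of all genes tested. The median log2 fold change was 0.67. The upstream sequences of 3 of the 4 genes that rose are shown here because they hold the core of that element. They run over the 250 bases before the start of the gene in RefSeq (GRCm38.p6), in the direction of transcription, and capitals mark matches to GAAA, any 2 bases and GAAA again, searched on both strands with overlapping matches counted.
Isg15, chr4:156200819-156201068, minus strand: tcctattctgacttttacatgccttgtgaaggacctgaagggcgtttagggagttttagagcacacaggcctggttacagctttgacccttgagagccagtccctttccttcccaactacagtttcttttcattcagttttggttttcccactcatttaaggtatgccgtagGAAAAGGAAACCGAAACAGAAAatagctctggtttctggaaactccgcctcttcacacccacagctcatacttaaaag
Bst2, chr8:71537473-71537722, minus strand: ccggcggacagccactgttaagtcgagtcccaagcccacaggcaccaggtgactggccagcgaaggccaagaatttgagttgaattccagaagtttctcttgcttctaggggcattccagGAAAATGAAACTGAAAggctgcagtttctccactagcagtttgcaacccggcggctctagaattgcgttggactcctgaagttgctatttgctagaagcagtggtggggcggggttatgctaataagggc
Gbp7, chr3:142530086-142530335, plus strand: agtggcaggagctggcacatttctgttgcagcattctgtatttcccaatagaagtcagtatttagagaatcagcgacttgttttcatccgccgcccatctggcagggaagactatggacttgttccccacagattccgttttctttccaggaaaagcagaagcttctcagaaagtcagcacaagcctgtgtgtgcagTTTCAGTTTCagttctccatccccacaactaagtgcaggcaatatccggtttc
The match in Gbp7 lies on the opposite strand, 3 overlapping matches make up the run in Isg15 and 2 the run in Bst2. The window of Ifi44 held no match. Of 26 interferon-stimulated genes tested with a RefSeq promoter window, 14 (53.8%) held the motif, against 336 of 10322 tested genes (3.26%). A match describes these letters only, and binding was not measured.

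Isg15, for a ubiquitin-like modifier, read 5.48, 6.91, 6.83 and 6.78 log2 CPM at 3 dpi and 7.69, 7.85 and 7.72 at 4 dpi. Bst2, for the virus-tethering protein tetherin, read 7.83, 7.68, 8.48 and 8.67 log2 CPM at 3 dpi and 9.36, 9.57 and 9.39 at 4 dpi. In both genes the 4 dpi libraries lay close together and above all of 3 dpi, and the 5 dpi library stood at 8.05 for Isg15 and 9.37 for Bst2. The log2 fold change was 1.15 ± 0.29 for Isg15 (adjusted p = 0.035), 1.22 ± 0.26 for Bst2 (adjusted p = 0.015) and 1.04 ± 0.27 for Gbp7, a guanylate-binding GTPase gene (adjusted p = 0.043). Ifi44 rose by 2.44 ± 0.53 (adjusted p = 0.016), from 0.37, 0.67, 2.83 and 1.18 log2 CPM at 3 dpi to 3.88, 3.95 and 4.21 at 4 dpi. Irf7, the interferon regulatory factor that amplifies the response, differed by 0.81 ± 0.31 (adjusted p = 0.17), but rose by 1.2 without 3 dpi replicate 2 (adjusted p = 0.013) and by 1.11 without both doubted libraries (adjusted p = 0.027). The single calls were fragile: leaving out 1 library ended that of Bst2 in 2 of the 7 fits, Ifi44 in 3, and Isg15 and Gbp7 in 5 each, with log2 fold changes from 0.91 to 3.35.

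Genes of cell division had mostly negative log2 fold changes at 4 dpi. Of all 13554 genes tested, 6446 had a positive log2 fold change, 1.09% fell, and in 8.22% the 4 dpi libraries lay below all of 3 dpi. Among 44 mitosis and cytokinesis genes 39 had a negative log2 fold change, with a median of -0.53, Mad2l1 fell, and in 6 genes the 4 dpi libraries lay below all of 3 dpi. Of 48 DNA replication and nucleotide synthesis genes 41 were negative (median -0.46) and 2 fell. Pcna, for the sliding clamp of DNA polymerase (chr2:132249162-132253314), read 7.96, 8.29, 8.14 and 8.57 log2 CPM at 3 dpi and 6.24, 6.19 and 6.64 at 4 dpi. All 3 dpi libraries were above all 4 dpi libraries, the log2 fold change was -1.89 ± 0.40 (adjusted p = 0.014) and the 5 dpi library stood at 6.8. The adjusted p of Pcna was 0.08 without 4 dpi replicate 1 and 0.091 without 4 dpi replicate 2. Its 3 dpi mean of 8.24 ± 0.26 log2 CPM was also above the 6.66 ± 0.30 of 2 dpi. Rpa1, for a subunit of the protein that coats single-stranded DNA, fell by 1.37 on the log2 scale (SE 0.28, adjusted p = 0.012), and Mad2l1, for a spindle checkpoint protein, by 1.68 (SE 0.37, adjusted p = 0.018). Each lost its call in 2 of the 7 fits, and no mitosis gene passed without the doubted libraries. Cenpa, for the centromeric histone, and Ccnb2, for cyclin B2, differed by -0.54 ± 0.31 (adjusted p = 0.38) and -0.50 ± 0.28 (adjusted p = 0.36), and 4 dpi replicate 3 was the lowest library in both, at 6.02 and 5.15 log2 CPM. At 5 dpi the median difference of the mitosis list from the 3 dpi mean was -0.04, and for the replication list that median was -0.30.

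Replication-dependent histone genes, whose transcripts accumulate in S phase, accounted for 7 of the 12 largest falls by the rule used for naming genes, all in the H2A family on chromosome 13. Looked up as a family after these values were seen, 63 genes with a Hist symbol were tested, of which 8 fell, none rose and 53 were negative, with a median log2 fold change of -0.97. Of all 13554 genes tested, 1.09% fell, 1.53% rose and 6446 had a positive log2 fold change. Hist1h2an read 7.3, 9.32, 7.44 and 7.81 log2 CPM at 3 dpi and 6.02, 6.12 and 4.72 at 4 dpi. In this gene 3 dpi replicate 2 was the highest and 4 dpi replicate 3 the lowest library, and the groups did not overlap. Its log2 fold change was -2.47 ± 0.55 (adjusted p = 0.018), and those of Hist1h2ah, Hist1h2af, Hist1h2ad, Hist1h2ag, Hist1h2ac and Hist1h2ak lay between -2.24 and -2.44. All 7 lost their calls when any 4 dpi library was left out and with both doubted libraries left out, and the log2 fold changes without 3 dpi replicate 2 ranged from -1.29 to -1.79. The coding sequences of the 6 of these genes compared, each 393 bases long, were 96.2–99.5% identical, so the division of reads among them is uncertain. Transcripts of such genes mostly lack the poly-A tail by which this library preparation captures RNA. At 5 dpi the median difference from the 3 dpi mean was -0.43 over the 17 H2A genes, 0.8 over the 16 H2B genes and 0.04 over all 63, and in the 7 named genes it was -0.18 to -0.61.

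Ribosome biogenesis genes also had mostly negative values, with 27 of 34 negative and a median log2 fold change of -0.44, while 6446 of all 13554 genes tested were positive. Of the 34, 3 fell and in 8 the 4 dpi libraries lay below all of 3 dpi, against 1.09% and 8.22% of all genes tested. The 3 were Rrs1 at -1.37 ± 0.34 (adjusted p = 0.034), Ddx21 at -1.18 ± 0.28 (adjusted p = 0.029) and Noc2l at -0.88 ± 0.23 (adjusted p = 0.0477), which encode a ribosome assembly factor, a nucleolar RNA helicase and a nucleolar complex protein. Each lost its call in at least 4 of the 7 fits, with adjusted p up to 0.16. Ncl, for nucleolin, had a log2 fold change of -0.99 ± 0.33 (adjusted p = 0.11, and 0.036 with DESeq2). Among 27 glycolysis genes 22 were negative (median -0.45) and in 9 the 4 dpi libraries lay below all of 3 dpi, against 8.22% of all genes tested, and Vegfa, included in the list as a hypoxia target, fell. Gapdh read 9.8, 11.87, 9.39 and 9.4 log2 CPM at 3 dpi and 8.74, 8.96 and 8.44 at 4 dpi, so that 3 dpi replicate 2 stood apart. Its log2 fold change of -1.82 ± 0.50 missed the threshold (adjusted p = 0.0552) and was -0.81 without that library. It passed without 3 dpi replicate 3 (adjusted p = 0.033) or replicate 4 (adjusted p = 0.038), in both at -2.05, and also with DESeq2. Of 40 nuclear oxidative phosphorylation genes, Atp5o rose (1.24 ± 0.26, adjusted p = 0.013) and Uqcrfs1 fell (-1.10 ± 0.25, adjusted p = 0.022), with calls lost in 2 and 6 of the 7 fits. Over all genes tested 1.53% rose and 1.09% fell. No cholesterol synthesis gene of 21 passed.

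Of 24 CXC and CC chemokine genes 1 rose and 1 fell, and of 25 cytokine and feedback genes 2 fell and none rose, against 1.53% higher and 1.09% lower over all genes tested. Cxcl5, a chemokine that attracts neutrophils (chr5:90759360-90761624), read 7.92, 8.64, 8.24 and 9.01 log2 CPM at 3 dpi and 6.72, 6.52 and 5.45 at 4 dpi. It was lower in all 4 dpi libraries, with a log2 fold change of -2.18 ± 0.47 (adjusted p = 0.015, 0.065 without 4 dpi replicate 2 and 0.061 without 4 dpi replicate 3), and it stood at 6.09 at 5 dpi and 2.80 ± 1.08 at 6 dpi. The chemokine gene that rose was Ccl19, for a lymphocyte attractant, which read 7.37, 6.14 and 4.63 log2 CPM at 4 dpi and 4.2 to 5.05 at 3 dpi. These overlapped, the 5 dpi library stood below 3 dpi at 4.1, and the rise of 1.74 ± 0.47 (adjusted p = 0.0497) lost its call in 6 of the 7 fits. The median log2 fold change of the cytokine list was -0.31. Its genes that fell were Il6ra, for the interleukin 6 receptor, at -1.97 ± 0.44 (adjusted p = 0.018), and Csf1, the macrophage growth factor, at -1.16 ± 0.24 (adjusted p = 0.011). The call of Il6ra was lost without 4 dpi replicate 1 (adjusted p = 0.096) and replicate 2 (adjusted p = 0.11), and that of Csf1 without 4 dpi replicate 2 (adjusted p = 0.0518). No complement gene of 16 passed. Immediate early genes, which respond to growth signals and also to tissue dissociation, had a median log2 fold change of -0.46 over 30 genes, with 20 negative and 1 fall, Fosl1, at -2.37 ± 0.63 (adjusted p = 0.0499), a call lost in 6 of the 7 fits. Of all 13554 genes tested, 6446 had a positive log2 fold change. Fos read 11.28 to 11.43 log2 CPM at 3 dpi and 10.16 to 11.02 at 4 dpi, a difference of -0.77 ± 0.27 (adjusted p = 0.14) that passed with DESeq2 (adjusted p = 0.031) and without both doubted libraries (-1.04, adjusted p = 0.024).

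Of the 12 largest falls by the naming rule, those outside the histone family were Fmo2, Klf15, Adap2, Carmil1 and Fosl1. Fmo2, for a flavin-containing monooxygenase (chr1:162874317-162898726), read 7.74, 7.3, 7.72 and 6.38 log2 CPM at 3 dpi and 4.62, 4.51 and 4.51 at 4 dpi. Klf15, for a Krüppel-like factor induced by glucocorticoids (chr6:90462576-90475238), read 5.83, 5.52, 5.51 and 4.8 log2 CPM at 3 dpi and 2.52, 2.45 and 3.03 at 4 dpi. The 4 dpi libraries were tightly grouped and well below 3 dpi in both genes, with log2 fold changes of -2.84 ± 0.44 (adjusted p = 0.0018) and -2.81 ± 0.51 (adjusted p = 0.0061). Fmo2 had stood at 7.69 ± 0.98 and Klf15 at 4.82 ± 0.58 log2 CPM at 2 dpi, and the 5 dpi library read 5.03 and 3.81, below all 3 dpi libraries. Adap2, for a GTPase-activating protein of ARF6, fell by 2.70 on the log2 scale (SE 0.48, adjusted p = 0.0054) and overlaps the antisense gene Adap2os, and Carmil1, for a regulator of actin capping, fell by 2.39 (SE 0.44, adjusted p = 0.0061). Fmo2, Klf15, Adap2 and Carmil1 passed in every fit without 1 library. Where 1.53% of all genes tested rose and 1.09% fell, 1 of 34 markers of resting and progenitor-like fibroblasts rose and 2 fell. The median log2 fold change of the 34 was -0.15. Hsd11b1, whose enzyme regenerates active glucocorticoid, read 8.47, 6.5, 8.53 and 7.81 log2 CPM at 3 dpi and 5.52, 6.1 and 6.28 at 4 dpi, a fall of 2.02 on the log2 scale (SE 0.46, adjusted p = 0.02). The other was Vit, for vitrin, at -1.56 ± 0.40 (adjusted p = 0.042), and Hsd11b1 and Vit each lost the call in 4 of the 7 fits. The member that rose was Ly6c1 (1.35 ± 0.36, adjusted p = 0.0457), whose call was lost in 5 fits and whose 5 dpi level of 6.75 log2 CPM lay within the 3 dpi range. Fkbp5, a standard glucocorticoid target picked out after its values were seen, fell by 1.72 on the log2 scale (SE 0.34, adjusted p = 0.011) but stood at 6.2 log2 CPM at 5 dpi, within the 3 dpi range.

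**Figure D4:**
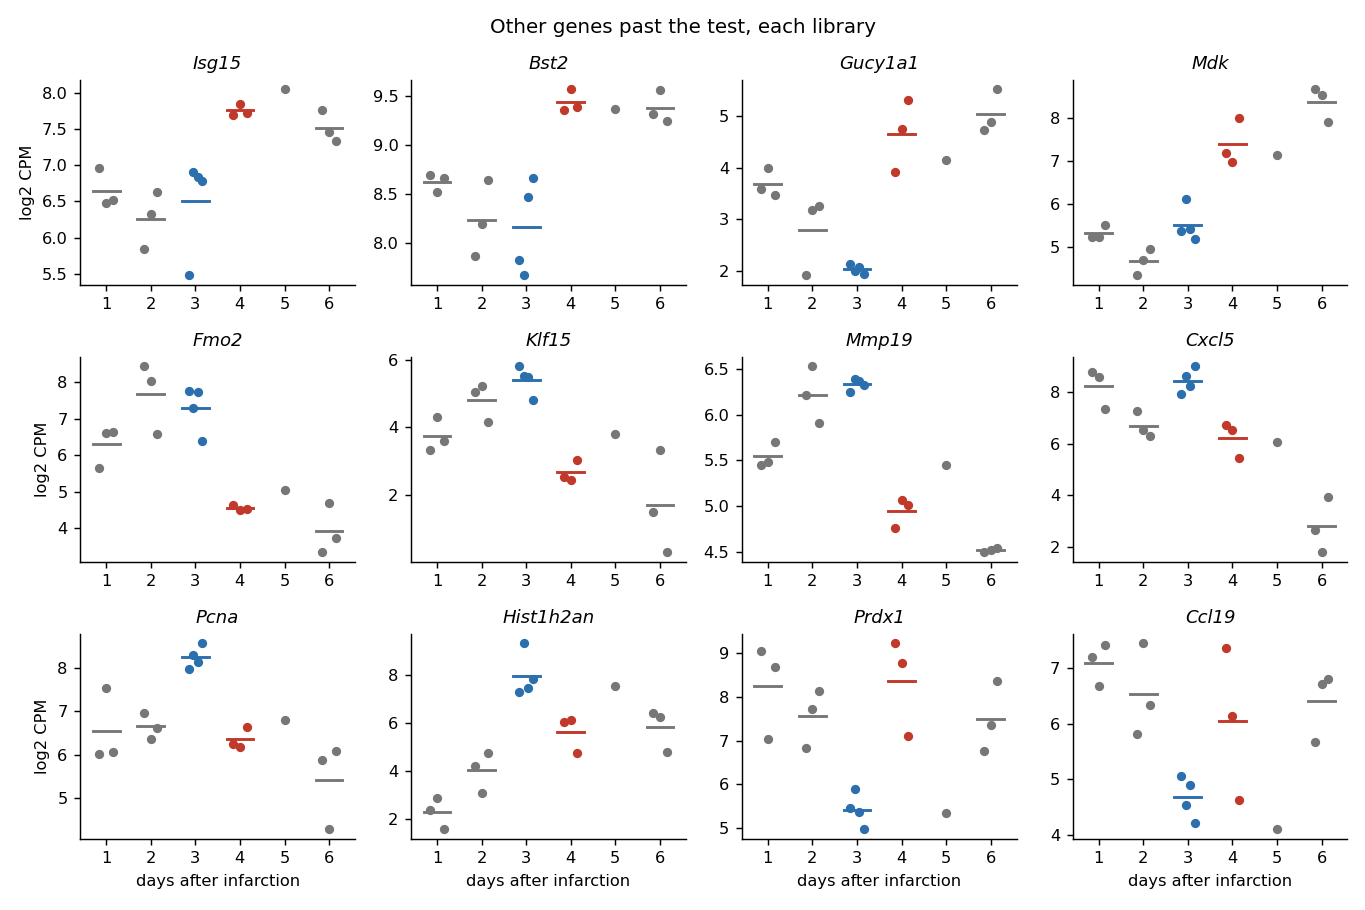
Levels of 12 further genes that passed the test, in each library (points, log2 CPM) by days after infarction, with bars for the mean of each day that has replicates; 3 dpi is blue and 4 dpi red. Isg15, Bst2, Gucy1a1 and Mdk stayed up at 5 and 6 dpi and Fmo2, Klf15 and Cxcl5 stayed down, whereas Prdx1 and Ccl19 at 5 dpi were back at or below the 3 dpi level.

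The largest rise by the naming rule was not carried by the 5 dpi library. Prdx1, for the antioxidant enzyme peroxiredoxin 1 (chr4:116685544-116700822), read 5.46, 5.88, 5.37 and 4.97 log2 CPM at 3 dpi and 9.23, 8.77 and 7.09 at 4 dpi. The days were clearly separate, with a log2 fold change of 3.16 ± 0.50 (adjusted p = 0.0018), but the 5 dpi library read 5.35, the level of 3 dpi. Its levels at 1, 2 and 6 dpi, of 8.25 ± 1.08, 7.56 ± 0.66 and 7.50 ± 0.81 log2 CPM, were all above those of 3 and 5 dpi. It was the only 1 of 28 antioxidant and metallothionein genes to pass, where 1.53% of all genes tested rose and 1.09% fell. Ptges3, for the HSP90 co-chaperone p23, rose by 2.31 ± 0.48 (adjusted p = 0.013, 0.0503 without 4 dpi replicate 2) and stood at 3.67 log2 CPM at 5 dpi, within the 3 dpi range of 1.06 to 3.74. Of 33 genes for endoplasmic reticulum folding and stress, Ddit3 rose, by 1.2 ± 0.25 (adjusted p = 0.012, 0.075 without 4 dpi replicate 2), and was back at 4.76 log2 CPM at 5 dpi. Ddit3 and Atp5o are each listed under 2 identifiers that overlap. The 3 dpi libraries and the 5 dpi library were alike in sex-linked genes. The 2 dpi libraries held 34–51 counts of Xist and 1095–1349 of the Y-linked genes. They read 6.84 to 8.13 log2 CPM for Prdx1 and 4.86 to 5.52 for Ptges3. The part of sex in the rises of Prdx1, Ptges3 and Ddit3 was not tested.

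Some genes with few counts changed more than those named by the rule, and 2 secreted-protein genes were picked out after their values were seen because the 5 dpi library carried them much further. C1qtnf3, for a C1q and TNF related protein of cartilage, read -1.13 to 0.27 log2 CPM at 3 dpi, 1.84, 3.22 and 3.01 at 4 dpi and 4.9 at 5 dpi. Wfdc18, for a secreted WAP domain protein, read -2.85 to -0.08 log2 CPM at 3 dpi, 4.0, 3.69 and 0.89 at 4 dpi and 5.25 at 5 dpi. Both were near the limit of detection at 3 dpi and were higher on each day from 3 to 5 dpi, with log2 fold changes at 4 dpi of 3.31 ± 0.57 (adjusted p = 0.0045) and 4.76 ± 0.87 (adjusted p = 0.0075), and both passed in every fit without 1 library.

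The summed levels of marker genes of other cells separated the days in 2 of the lists. Of 9 tested cardiomyocyte markers 6 rose (Tnnt2, Actc1, Myl2, Myl3, Pln and Nppa), among them 2 of the 12 largest rises by the naming rule. Over all genes tested 1.53% rose and 1.09% fell. Tnnt2, for cardiac troponin T, read 1.06, 0.43, 1.89 and 1.25 log2 CPM at 3 dpi and 3.67, 4.26 and 4.32 at 4 dpi, and Myl2, for the ventricular myosin light chain, rose by 2.54 ± 0.46 (adjusted p = 0.0058). The log2 fold change of Tnnt2 was 2.93 ± 0.43 (adjusted p = 0.00098), without overlap. The list summed to 10.1–14.6 CPM at 3 dpi, 58.3–93.2 CPM at 4 dpi, 21.8 CPM at 5 dpi and 115–273 CPM at 6 dpi, and Ryr2 was at 0 in all 4 dpi libraries. In bulk samples a larger share of such cells or their RNA and a higher level per fibroblast cannot be told apart. Monocyte and macrophage markers went the other way, summing to 62.6–277 CPM at 3 dpi, with the highest values in replicates 3 and 4, against 28.7–44.9 CPM at 4 dpi and 94.2 CPM at 5 dpi. In 3 dpi replicate 2 the highest members were Csf1r (32.6 CPM) and Cd14 (15.9 CPM). C1qa and C1qb read 0.0805 and 0.241 CPM in that library, below their 0.961–5.13 and 3.84–7.56 CPM at 4 dpi. All 10 monocyte and macrophage markers tested had a negative log2 fold change (median -2.13). Of the 10, 1 fell, Cd14, at -1.87 ± 0.34 (adjusted p = 0.0061). In Cd14 alone the 4 dpi libraries lay below all of 3 dpi, as in 8.22% of all genes tested. The part of these cells in the falls of Cxcl5, Csf1 and Il6ra was not tested.

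The summed levels of the remaining marker lists overlapped between the days. Endothelial markers summed to 19.2–84.2 CPM at 3 dpi and 28.4–48.8 at 4 dpi, mesothelial and epicardial markers to 61.9–264 and 52.3–85.4, and pericyte and smooth muscle markers to 134–169 and 147–212. Neutrophil markers (1.33–8.3 and 0.534–5.91 CPM), Schwann cell markers (3.78–7.36 and 5.58–9.0 CPM) and lymphocyte markers (0.223–1.7 and 0–0.75 CPM) were scarce on both days. No gene of these 6 lists passed the test, and of the 9 fibroblast markers Lum alone did. Of 7 endothelial markers tested 6 had a negative log2 fold change (median -2.16), among them Egfl7 (-2.16 ± 0.64, adjusted p = 0.078). Tek was positive, at 12.4–25.4 CPM at 3 dpi and 23.8–40.5 CPM at 4 dpi. Of 7 mesothelial and epicardial markers tested 6 were negative (median -0.97). Over all 13554 genes tested, 6446 were positive.

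**Figure D5:**
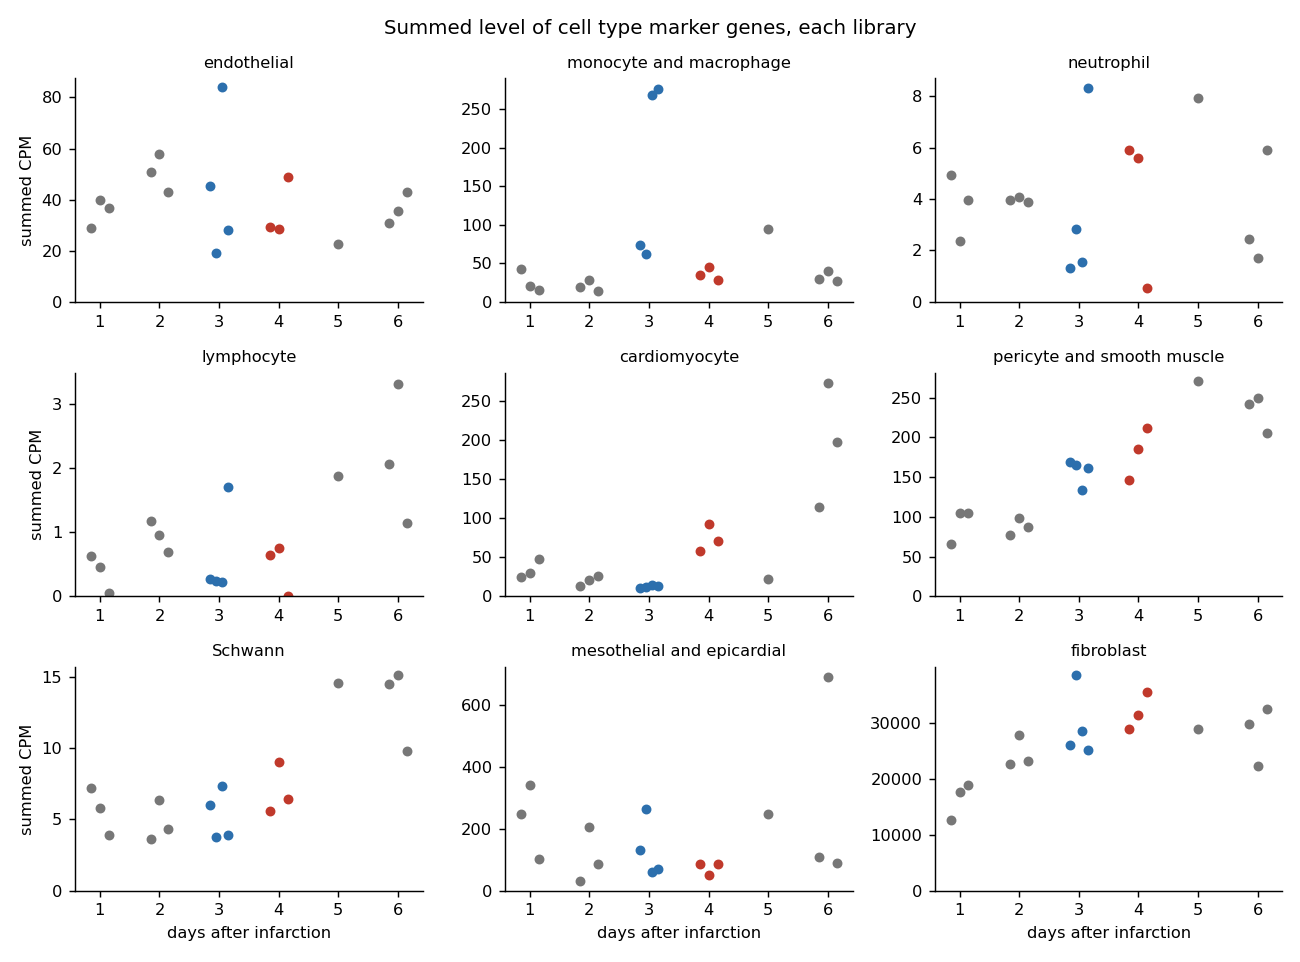
Summed CPM of the marker genes of 9 cell types in each library (points) by days after infarction, with 3 dpi in blue and 4 dpi in red; each vertical axis starts at 0 and has its own scale. Cardiomyocyte markers were higher in the 3 libraries of 4 dpi (58.3–93.2 CPM) than in the 4 of 3 dpi (10.1–14.6 CPM) and higher again at 6 dpi, while monocyte and macrophage markers were highest in 2 libraries of 3 dpi.

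The study also defined 2 gene groups, D1 and D2, from RNA velocity of single CFs rather than from these libraries. The sheets used here list 43 and 57 genes, which are only part of those the study grouped. Of 42 D1 genes tested 5 rose and none fell (median log2 fold change 0.43), and of 55 D2 genes 10 rose and 1 fell (median 0.39), where 1.53% of all genes tested rose and 1.09% fell. Without the doubted libraries 7 and 11 rose, in a fit where 467 of all 13461 genes tested did. Ogn, Col11a1, Col8a2, Aspn and Thbs4 were among the D2 genes that rose.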

How the data were processed

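The authors sorted CFs from infarcted hearts at 1 to 6 dpi and sequenced bulk RNA by MARS-seq, a protocol that captures poly-A RNA and reads 3′ ends, demultiplexed with bcl2fastq 1.2.4, aligned with STAR to mm10, and counted reads per gene with featureCounts. They deposited raw counts, not normalized, for 31053 genes in 17 libraries. Use of strand and collapsing of molecular identifiers are not given in the sources used here, so counts may hold amplification copies.

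Samples were grouped by the day in their labels. Gene names, positions and overlaps came from GENCODE vM21 (GRCm38), which matched 31011 identifiers. Levels are TMM-scaled log2 CPM with a prior count of 2, and means ± SD are over libraries. The test was edgeR 4.0.16 (R 4.3.3), quasi-likelihood, TMM factors, day as a factor over all 17 libraries, contrast 4 against 3 dpi, a filter that kept genes reaching 10 counts in 3 or more libraries, and Benjamini-Hochberg adjusted p under 0.05. Log2 fold changes are the fitted values, with SE taken as their size over the square root of F. The test was checked on simulated data. The p-values measure the spread between libraries, which were not tied to animals.

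Named genes were the 12 largest rises and 12 largest falls among genes past the test with a mean of at least 100 counts over the 7 libraries, no overlap between the days and no predicted-gene symbol. Added to these were, per gene list, up to 4 members past the test and up to 2 others of highest level, and the 6 RCF markers. The members and lists were chosen with earlier results of these data known, so list counts and medians are descriptions beside those of all genes. Alternatives were DESeq2 1.42.0 in place of edgeR, 2 other scalings, no filter, a replicate block, the 3 and 4 dpi libraries alone, each library left out in turn and, chosen after seeing the data, the 2 doubted libraries left out. X- and Y-linked, mitochondrial and globin genes were not described. Cxcl11 and Mx2 were not matched in the table, and 1 gene past the test is not reported here. Same-numbered libraries of 3 and 4 dpi deviated with correlations of 0.111, -0.041 and 0.134. These do not show whether the numbers pair the libraries, and the main test did not pair them.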

Additional observations from a re-analysis of the deposited data

Results flagged for a closer look

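Among the 89 genes followed by name, 9 had a 3 dpi library far from the other 3 (Dixon's ratio above its 95% critical value), where chance would give about 4.5, since about 1 in 20 groups is marked by chance. Of these, 6 were in 3 dpi replicate 2. In that library Col1a1 stood at 14.03 log2 CPM against 12.23 to 12.53 in the others, Col1a2 at 13.22 against 12.26 to 12.39, Sparc at 13.24 against 12.51 to 12.62, Gapdh at 11.87 against 9.39 to 9.8 and Hist1h2ac at 9.8 against 7.38 to 7.67, while Uqcrfs1 was low at 7.07 against 7.75 to 7.87. In 3 dpi replicate 3, Fmod stood at 3.42 log2 CPM against 2.19 to 2.39 and Ogn at 6.72 against 5.37 to 5.58, both toward the 4 dpi level. In 3 dpi replicate 1, Isg15 stood at 5.48 log2 CPM against 6.78 to 6.91. The groups of 3 libraries were not examined in this way.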

How the results depend on the processing

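The test gave 356 genes (208 higher, 148 lower). Separate fits gave 835 with DESeq2 (405 and 430), 812 without the filter on low counts (357 and 455), 221 with the replicate block (135 and 86) and 111 in the fit of only the 3 and 4 dpi libraries (81 and 30), which has fewer samples to estimate the spread. Of the 356, these fits shared 356, 336, 206 and 105. Other scalings left 348 and 354. Leaving out 1 library gave 113 to 684 genes, 83 to 377 higher and 30 to 307 lower, fewest without 4 dpi replicate 2 and most without 3 dpi replicate 2, and leaving out both doubted libraries gave 812, 467 higher and 345 lower. The share of higher genes was 58.4%, 56.0% and 61.6% under the 3 scalings, 44.0% without the filter and 73.0% in the fit of 2 days. The cause of these shifts was not tested, except that fits with fewer libraries have fewer degrees of freedom. Of the 73 genes named as past the test, the replicate block ended 18 calls, the fit of 2 days 39 and leaving out both doubted libraries 16. Without 1 library at a time, Col1a1 ranged from -0.12 to 0.66, with signs turned at -0.12, -0.06, -0.07 and -0.01, Dcn from -0.29 to 0.12, turned at 0.1, 0.12, 0.04 and 0.09, and Acta2 from -0.13 to 0.33, turned at -0.06, -0.13 and -0.03. No gene past the test turned direction in any fit. Whether the numbers pair the samples could not be told from these correlations. Of the same-numbered libraries, replicates 1 and 3 correlated best with their own number and replicate 2 did not. With 3 and 4 libraries, 307 of the 356 genes past the test changed more than 2-fold. How many smaller changes the test would miss was not measured.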
